A study of Mus musculus with 12 samples.

Results

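Mouse embryonic stem cells made by nuclear transfer (NT-ESCs, 2 libraries) were compared with induced pluripotent stem cells made by defined factors (iPSCs, 2 libraries), by sequencing of small RNA. A microRNA (miRNA) entered the comparison when its value lay above the table minimum, which marks 0 reads, in at least 2 of the 4 libraries, and 837 of the 1042 miRNAs in the deposited table did so. The study as a whole comprised 12 libraries, with 3 each of mouse embryonic fibroblasts (MEFs) and embryonic stem cells (ESCs) and 2 of NT-iPSCs beside the 4 compared here. It asked how miRNA profiles differ among cells that reached pluripotency by different routes. The MEFs, iPSCs, NT-ESCs and NT-iPSCs carry the C57B6/129SvJae F1 background, and the ESC line is E14, of 129/ola background. The iPSCs came from MEFs infected with a dox-inducible lentivirus for Oct4, Sox2, Klf4 and c-Myc, so they carry the integrated transgenes. The NT-ESCs came from MEF nuclei placed in oocytes, and the NT-iPSCs from an iPSC nucleus placed in an enucleated oocyte. All pluripotent cells were grown with leukaemia inhibitory factor on irradiated MEF feeders. Each type is 1 line sampled as batches of RNA, so the p-values below measure the spread between batches and say nothing of the spread between lines. The labels name no sequencing batch, and library handling cannot be told apart from cell type.

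A miRNA is a short RNA that guides Argonaute proteins to messenger RNAs, which it represses mainly through its seed, the stretch near the 5′ end that pairs with the target. In mouse ESCs the miR-290 and miR-302 clusters are the classical pluripotency miRNAs. Members of the let-7 family accumulate as cells differentiate and are held back in ESCs by the RNA-binding protein LIN28. The large miRNA cluster of the Dlk1-Dio3 domain is imprinted and expressed from the maternal chromosome, and loss of its transcripts is known from some iPSC lines of low developmental capacity.

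The families on which the comparison turned are shown here by their mature sequences from RefSeq (GRCm38.p6), written 5′ to 3′ with the seed (bases 2 to 8) in capitals. RefSeq held a mature sequence for 635 of the 837 miRNAs. The first set shows the seed shared by the 9 members of the let-7 family, all of which were higher in NT-ESCs.
let-7a-5p: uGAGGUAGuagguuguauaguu
let-7b-5p: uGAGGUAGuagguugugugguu
let-7c-5p: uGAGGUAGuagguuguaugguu
let-7d-5p: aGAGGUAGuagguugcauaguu
let-7e-5p: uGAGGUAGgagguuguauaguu
let-7f-5p: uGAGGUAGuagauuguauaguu
let-7g-5p: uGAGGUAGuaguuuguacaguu
let-7i-5p: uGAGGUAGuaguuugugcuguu
miR-98-5p: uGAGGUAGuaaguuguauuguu

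The second set shows members of the miR-290 and miR-302 clusters that carry 1 common seed although their levels differed between the cell types in different ways.
miR-291a-3p: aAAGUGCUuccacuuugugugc
miR-294-3p: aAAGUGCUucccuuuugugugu
miR-295-3p: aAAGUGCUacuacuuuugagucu
miR-302b-3p: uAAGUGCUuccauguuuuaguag
miR-302d-3p: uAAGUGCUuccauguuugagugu

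The third set shows other miRNAs with the smallest p in the 2 directions, first those higher in NT-ESCs and then, from miR-184-3p on, those lower. No seed is common to any of them.
miR-10a-5p: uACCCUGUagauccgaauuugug
miR-125b-5p: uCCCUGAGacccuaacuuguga
miR-199a-3p: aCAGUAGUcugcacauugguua
miR-9-3p: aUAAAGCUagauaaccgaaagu
miR-146a-5p: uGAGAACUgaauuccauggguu
miR-184-3p: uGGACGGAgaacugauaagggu
miR-300-3p: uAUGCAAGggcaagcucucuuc
miR-134-5p: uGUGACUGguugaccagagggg
miR-409-3p: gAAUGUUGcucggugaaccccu
miR-434-3p: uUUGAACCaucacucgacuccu
miR-434-5p: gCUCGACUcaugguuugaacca
miR-344-3p: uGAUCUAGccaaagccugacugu
miR-449a-5p: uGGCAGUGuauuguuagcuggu

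Levels are given as the deposited values, read counts after variance stabilizing transformation (VST) on a log2 scale, and a difference is the NT-ESC mean minus the iPSC mean on that scale. The recovered miRNA reads numbered 7567263 and 6236953 in NT-ESCs and 5293867 and 6088839 in iPSCs, so that 3 reads, the upper limit that a count of 0 allows, stand for a CPM (reads scaled to the total of the library) of 0.396 to 0.567. The limit takes in counting error and not the fact that reads copied by PCR are not separate molecules. Across the 1042 miRNAs, Pearson's r was 0.988 for the pair of NT-ESC libraries and 0.985 for the pair of iPSC libraries, and it lay between 0.974 and 0.977 for an NT-ESC against an iPSC library. Of the 837 miRNAs, 735 had reads in all 4 libraries. A further 50 were above the minimum in exactly 2, with at most 14 reads in a library, and 37 excluded miRNAs were above it in 1, with at most 4 reads. In 116 of the 837 the reads were too few for testing, which required 10 reads in at least 2 of the 12 libraries and which 721 passed.

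Over the 732 miRNAs tested, 188 (25.7%) had a limma adjusted p under 0.05 and are called different below, 92 (12.6%) higher in NT-ESCs and 96 (13.1%) lower. These shares, 12.6% and 13.1%, are the background for the counts of calls in each group below. All 188 belong to the 837. They took between 36% and 47.6% of the miRNA reads of a library. The called differences ran from -2.57 to 2.72 with a median size of 1.22, against 0.62 over all miRNAs tested, and 129 (17.6%) were at least 1 in size. The libraries of the 2 types did not overlap for any called miRNA, but with 2 libraries against 2 this was also so for 504 (68.9%) of those tested. When library size was taken as the total of miRNA reads, the median difference over all tested moved from -0.10 to -0.45 and the calls became 58 higher and 173 lower, 25.1% higher in place of 48.9%. Leaving the 10 most abundant miRNAs out gave 76 higher and 119 lower (39.0% higher). Without NT-ESC replicate 71 there were 111 calls and without NT-ESC replicate 72 there were 103, and 81 miRNAs, 43 higher and 38 lower, were called with all libraries and without any 1 of the 4.

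**Figure D1:**
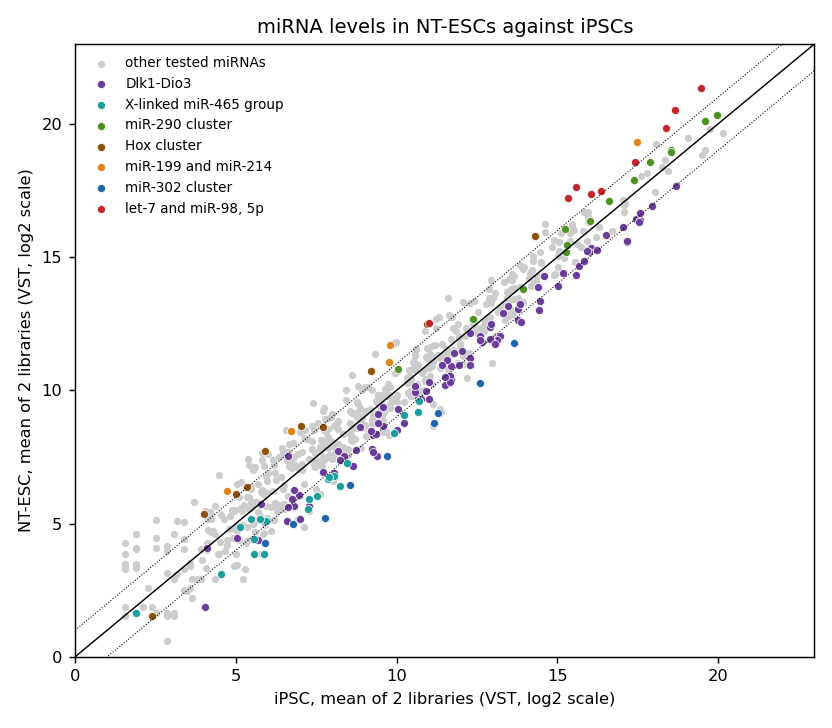
Mean level of each tested miRNA in 2 iPSC libraries (x axis) and 2 NT-ESC libraries (y axis), both as VST values on a log2 scale, with colours for named groups, the solid line for equal levels and dotted lines for a difference of 1. The let-7 family lies above the upper dotted line, the miR-302 cluster below the lower one, and the Dlk1-Dio3 miRNAs lie almost all below the solid line.

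Mature let-7 miRNAs were higher in NT-ESCs throughout the family. All 9 members, including miR-98, were called higher, with differences from 1.10 to 2.05 and a median of 1.51, beside -0.10 over all miRNAs tested. Together they made up 27% and 26.9% of miRNA reads in the NT-ESC libraries and 11% and 10.1% in the iPSC libraries. The share was 18.3% to 21.8% in MEFs, 6.68% to 8.52% in ESCs, and 33.7% and 33.5% in NT-iPSCs.

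Summed over the 4 libraries the miRNA with the most reads was let-7f-5p. Of the 5 most abundant, miR-293-3p, miR-669c-5p and miR-140-3p exceeded it in both iPSC libraries. The levels of let-7f-5p were 21.32 and 21.37 in NT-ESCs and 19.40 and 19.51 in iPSCs. For let-7f-5p the NT-ESC libraries were close together and far above both iPSC libraries. The difference was 1.89 (standard error 0.17, adjusted p = 0.000118), or 3.71-fold in normalized reads. The levels of let-7a-5p were 20.46 and 20.57 in NT-ESCs and 18.61 and 18.68 in iPSCs, again without overlap, with a difference of 1.86 (standard error 0.20, adjusted p = 0.000218). For let-7d-5p they were 17.20 and 17.21 against 15.16 and 15.50. Here the iPSC libraries were further apart than the NT-ESC libraries, by less than the difference of 1.87 between types (standard error 0.19, adjusted p = 0.000159). The largest difference within the family was that of let-7b-5p, at 17.66 and 17.62 in NT-ESCs and 15.63 and 15.55 in iPSCs. It amounted to 2.05 (standard error 0.24, adjusted p = 0.000345), or 4.13-fold in normalized reads. The hairpins of let-7a-1, let-7f-1 and let-7d lie within 10 kb of each other on the minus strand of chromosome 13 (GRCm38, chr13:48536012-48538272), outside any annotated host gene, and of 6 tested arms from there 5 were called higher. Since let-7a and let-7f have further hairpins elsewhere with the same mature sequence, their reads cannot be divided among loci. Without NT-ESC replicate 71, 8 of the 9 members were called, and with the total of miRNA reads as library size all 9 were.

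**Figure D2:**
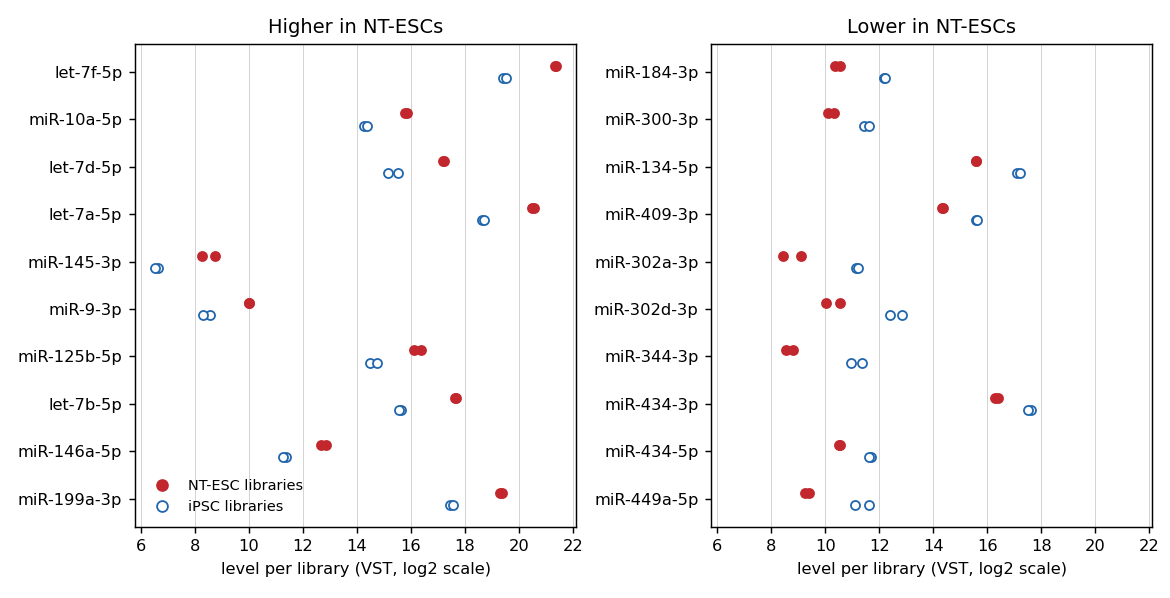
Level in each library (x axis, VST on a log2 scale) of 10 miRNAs in each direction, those of smallest p, with filled red points for the 2 NT-ESC libraries and open blue points for the 2 iPSC libraries. No pair of NT-ESC points overlaps its pair of iPSC points, and points of 1 type lie closer together than the types.

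The opposite arms of these hairpins, the 3p strands, are the less used products and were read rarely, with 0.00970% of reads at most in a compared library. Of 8 tested members, 4 were called higher and none lower, with a median difference of 2.00. Reads of let-7d-3p numbered 411 and 500 in NT-ESCs and 122 and 125 in iPSCs, and its difference was 1.95 (standard error 0.45, adjusted p = 0.00951). The identical sequences of let-7a-1-3p and let-7c-2-3p had 5 and 8 reads in NT-ESCs and 2 and 0 in iPSCs, so their difference of 2.72 rests on counts near the limit. The 4 calls became 0 without NT-ESC replicate 72 and 1 without iPSC replicate 63.

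Partners of let-7 in its polycistronic transcripts, the miR-99, miR-100 and miR-125 families, had 4 of 11 tested called higher and 1 lower. Over all miRNAs tested the shares were 12.6% and 13.1%. Of the 11 differences in these families 10 were above 0, with a median of 0.54. The levels of miR-125b-5p, which represses pro-apoptotic and p53 pathway genes, were 16.12 and 16.35 in NT-ESCs and 14.48 and 14.74 in iPSCs, without overlap. Its difference was 1.63 (standard error 0.18, adjusted p = 0.000266). The levels of miR-99a-5p were 10.23 and 10.11 against 8.48 and 9.10 (difference 1.38, standard error 0.21, adjusted p = 0.00111), and those of miR-100-5p 10.08 and 10.16 against 9.12 and 8.91 (difference 1.10, standard error 0.16, adjusted p = 0.000657). The libraries of the 2 types overlapped for neither. The 1 member called lower was miR-99b-3p, picked out after its value was seen, at 949 and 690 reads in NT-ESCs and 1118 and 2137 in iPSCs. It comes from the same short stretch of chromosome 17 as let-7e and miR-125a (GRCm38, chr17:17830188-17830879), where 2 of the 6 tested arms were called higher. That lower call was lost without iPSC replicate 63, NT-ESC replicate 71 or NT-ESC replicate 72.

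Most miRNAs taken here to mark mesenchymal and fibroblast cells were higher in NT-ESCs, while miR-21-5p, the most abundant miRNA of these MEFs, was lower. All 6 tested miRNAs of the miR-199 and miR-214 group, which come from transcripts antisense to dynamin genes and are typical of mesenchyme, were called higher, with differences from 1.30 to 1.90 and a median of 1.80. The levels of miR-199a-3p were 19.30 and 19.38 in NT-ESCs and 17.44 and 17.55 in iPSCs. The NT-ESC libraries both stood well above the iPSC libraries, with a difference of 1.85 (standard error 0.23, adjusted p = 0.000371). The mature sequence of miR-199b-3p is the same, so the table lists nearly the same reads under both names. The levels of miR-214-3p were 11.57 and 11.82 against 9.79 and 9.79 (difference 1.90, standard error 0.30, adjusted p = 0.00112). The hairpins Mir199a-2 and Mir214 lie in Dnm3os, antisense to Dnm3, on chromosome 1 (GRCm38, chr1:162217814-162223477), and all 4 of their tested arms were called higher. Both arms of miR-199a also come from Mir199a-1 on chromosome 9, and the sequence of miR-199a-3p also from Mir199b on chromosome 2. Their reads cannot be divided among these loci. The miR-199 and miR-214 group held 5.72% and 5.80% of reads in NT-ESCs and 2.12% and 2.00% in iPSCs. These became 2.96% and 3.0% against 1.08% and 1.01% when identical sequences were counted once. With the total of miRNA reads as library size 5 of the 6 were called, and not every call held with each library left out in turn.

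Of the 4 arms of miR-143 and miR-145, which promote smooth muscle differentiation and of which miR-145 represses pluripotency factors, 3 were called higher. The levels of miR-145-3p were 8.25 and 8.73 in NT-ESCs and 6.62 and 6.52 in iPSCs, without overlap, and its difference was 1.93 (standard error 0.22, adjusted p = 0.000266). The levels of miR-143-3p were 15.86 and 16.06 against 14.80 and 14.45 (difference 1.33, standard error 0.27, adjusted p = 0.00448). The difference of miR-145-5p, 1.88 with all libraries, was 1.60 without NT-ESC replicate 71 and 1.37 without iPSC replicate 63, and its call was lost in both cases. In the Hox clusters, which hold the miRNAs miR-10, miR-196 and miR-615 beside the genes for positional identity, 6 of 10 tested members were called higher and none lower, with a median of 1.42. The levels of miR-10a-5p were 15.85 and 15.77 in NT-ESCs and 14.27 and 14.36 in iPSCs. The libraries of each type were close together, and the difference was 1.49 (standard error 0.15, adjusted p = 0.000159). The levels of miR-196b-5p, whose hairpin lies within Hoxa9, were 8.57 and 8.72 against 7.02 and 7.05 (difference 1.61, standard error 0.21, adjusted p = 0.000406). The 6 Hox cluster calls were also made without each of the 4 libraries, and without iPSC replicate 63 there were 2 further higher calls and 1 lower.

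In cells grown on feeders, RNA of the feeder cells is part of the sample, and fewer feeder cells and less RNA per cell cannot be told apart. Of 10 miRNAs taken as fibroblast or feeder markers, 9 were called higher in NT-ESCs and none lower, and the 1 without a call, miR-31-5p, differed by 0.80 (adjusted p = 0.0557). Their summed CPM was 61937 and 62763 in NT-ESCs, 24170 and 22296 in iPSCs, and on average 95050 in MEFs, 54373 in ESCs and 67864 in NT-iPSCs. The pair miR-199a-3p and miR-199b-3p, 1 sequence under both names, made up most of the sum in NT-ESCs. The other 8 markers summed to 4989 and 5030 in NT-ESCs, 3040 and 2413 in iPSCs and on average 77692 in MEFs, so that NT-ESCs stood at 6.42% and 6.47% of the MEF mean and iPSCs at 3.91% and 3.11%, in place of 65.2% and 66.0%, and 25.4% and 23.5%, with the pair. None of the 10 was at 0 in the 4 libraries. The most abundant miRNA of these MEFs, miR-21-5p, was not among the 10 and was lower in NT-ESCs (difference -0.66), as given below. The 2 arms of miR-21 held on average 26.4% of reads in MEFs, 10.8% in ESCs, 2.02% in NT-ESCs and 4.14% in iPSCs. Set against MEFs, the markers divided. The CPM of miR-143-3p reached 4.46% and 4.94% of the MEF mean in NT-ESCs and 2.90% and 1.98% in iPSCs. The muscle miRNA miR-206-3p, very abundant in these MEFs, reached 0.306% and 0.258% against 0.141% and 0.123% (difference 1.45, standard error 0.22, adjusted p = 0.00105). It was the 1 call among 6 tested muscle miRNAs, of which 2 had differences above 0 and 4 below, with a median of -0.28. The summed CPM of 4 muscle markers was 1920 and 1897 in NT-ESCs and 2521 and 2052 in iPSCs, and miR-1a-3p, miR-133a-3p and miR-133b-3p had differences of -0.04, -0.96 and -0.53, none of them called. The CPM of miR-199a-3p, however, was 324% and 328% of the MEF mean in NT-ESCs and 120% and 113% in iPSCs. That of let-7f-5p was 116032 and 114995 in NT-ESCs and 41350 and 38723 in iPSCs, beside a MEF mean of 56649. The part of feeder RNA in the differences of the markers and of let-7f-5p was not tested.

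Members were also sorted by their difference between MEFs and ESCs, which uses none of the 4 libraries. Of the 133 that were at least 2 higher in MEFs, 38 (28.6%) were called higher in NT-ESCs than in iPSCs and 6 (4.51%) lower, with a median difference of 0.44. Of the 398 within 2, 41 were higher and 71 lower (median -0.18). Of the 190 at least 2 lower in MEFs, 13 were higher and 19 lower (median -0.14). Over the 721 tested members Pearson's r between the 2 differences was 0.13 (Spearman's rho 0.11), and without the Dlk1-Dio3 miRNAs it was 0.21 (rho 0.21, n = 623). These are descriptions across miRNAs of shared libraries.

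**Figure D3:**
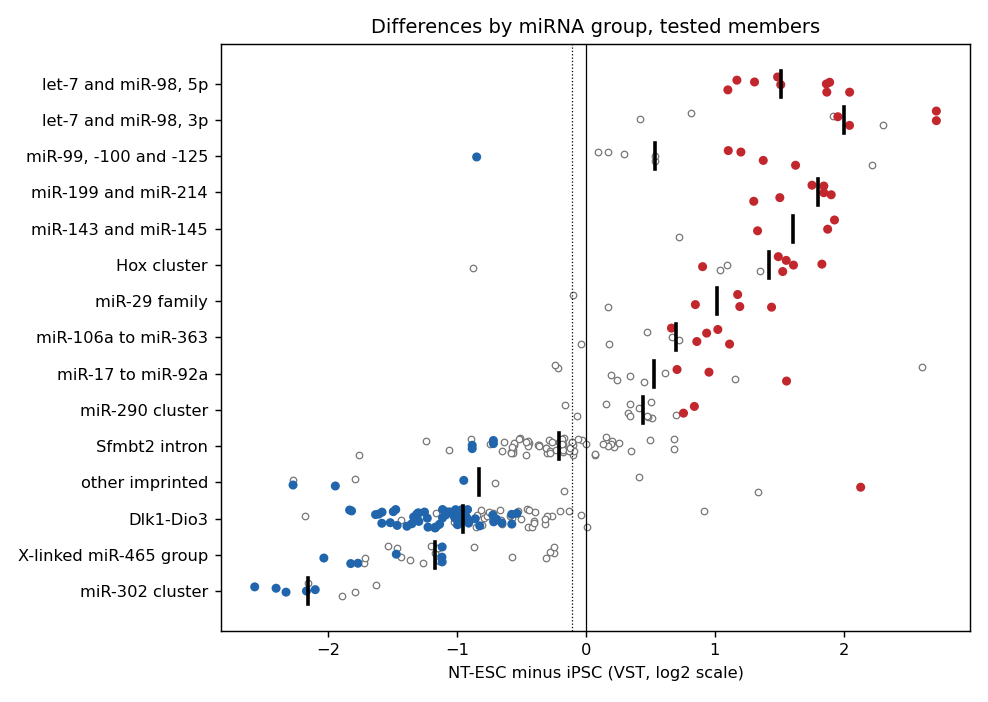
Difference of each tested miRNA (x axis, NT-ESC minus iPSC, VST on a log2 scale) by group, with filled points for called miRNAs (red higher, blue lower), open points for the rest, a bar for the group's median, and the dotted line for the median over all miRNAs tested, -0.10. The medians run from 2.00 for the let-7 3p arms and 1.80 for miR-199 and miR-214 down to -0.95 for Dlk1-Dio3 and -2.16 for the miR-302 cluster.

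The pluripotency clusters did not move together. The miR-290 cluster, a classical pluripotency cluster of mouse ESCs, made up 19.5% and 19.6% of reads in NT-ESCs and 16.4% and 20.7% in iPSCs. The iPSC libraries thus lay on both sides of the NT-ESC libraries. In the ESC libraries the cluster held 10.1% to 12.1%. Of its 14 tested arms 2 were called higher and none lower, beside 12.6% and 13.1% over all tested, with a median difference of 0.45. The levels of miR-295-5p were 16.07 and 16.08 in NT-ESCs and 15.06 and 15.40 in iPSCs (difference 0.84, standard error 0.20, adjusted p = 0.0104), without overlap. This call was lost without iPSC replicate 62 (0.67, adjusted p = 0.0683), NT-ESC replicate 71 (0.85, adjusted p = 0.0578) or NT-ESC replicate 72 (0.84, adjusted p = 0.0623). The other call, miR-290-3p, was lost without any 1 of the 4 libraries (adjusted p from 0.0508 to 0.152), so that none of the 2 was made without iPSC replicate 62, NT-ESC replicate 71 or NT-ESC replicate 72, and neither of the 2 calls was made with the total of miRNA reads as library size. The most abundant arm, miR-293-3p, had levels of 20.36 and 20.29 in NT-ESCs and 19.73 and 20.23 in iPSCs, and its difference of 0.35 (standard error 0.70, adjusted p = 0.758) was not called. The levels of miR-290-5p were 19.99 and 20.21 against 19.22 and 19.96 (difference 0.51, standard error 0.76, adjusted p = 0.669). These standard errors come from all 12 libraries, and in MEFs the cluster was near 0 reads.

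The miR-302 and miR-367 cluster, which is prominent in the later, primed state of pluripotency and in human ESCs, had 5 of 9 tested arms called lower in NT-ESCs and none higher. All 9 had differences below 0, from -2.57 to -1.62 with a median of -2.16. The cluster was rare, at 0.0304% and 0.0227% of reads in NT-ESCs and 0.141% and 0.144% in iPSCs, beside 0.0190% to 0.0199% in ESCs. Reads of miR-302d-3p numbered 495 and 274 in NT-ESCs and 1682 and 2291 in iPSCs, with levels of 10.53 and 10.02 against 12.38 and 12.82. The types stood far apart, with a difference of -2.33 (standard error 0.32, adjusted p = 0.000511) and 5.0-fold more normalized reads in iPSCs. Reads of miR-302a-3p numbered 182 and 91 against 713 and 740, with levels of 9.10 and 8.44 against 11.14 and 11.19 (difference -2.40, standard error 0.31, adjusted p = 0.000406). The largest difference was that of miR-302c-3p, at 17 and 6 reads in NT-ESCs and 69 and 68 in iPSCs (-2.57, standard error 0.50, adjusted p = 0.00404). The 5 hairpins lie on the plus strand of chromosome 3, antisense to Larp7 (GRCm38, chr3:127545228-127545807), and the same 5 arms were called without each of the 4 libraries. With the total of miRNA reads as library size 8 of the 9 were called.

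The seed AAGUGCU is common to miR-291a-3p, miR-294-3p and miR-295-3p of the first cluster and miR-302b-3p and miR-302d-3p of the second. These 5 are the members for which the RefSeq table gave this seed, and miR-302a-3p had no match in it. Their differences ran from -2.33 to 0.48, and 1 of the 5 was called. Because the miR-290 members were far more abundant, all 5 together held 4.95% and 4.38% of reads in NT-ESCs and 3.91% and 5.17% in iPSCs, with overlap between the types. The related seed AAAGUGC of the miR-17 family, which drives proliferation, was carried by 6 tested miRNAs, of which 4 were called higher and none lower (median 0.82). These 4 became 1, miR-20b-5p, without iPSC replicate 63 or NT-ESC replicate 71 or with the total of miRNA reads as library size, and 3 without iPSC replicate 62 or NT-ESC replicate 72. In the miR-106a to miR-363 cluster on the X chromosome 5 of 10 were called higher (median 0.70). In the miR-17 to miR-92a cluster it was 3 of 12 (median 0.53), beside 12.6% called higher over all miRNAs tested. The share of reads on the miR-17 to miR-92a cluster was nevertheless lower in NT-ESCs, at 1.60% to 1.66% against 1.87% to 2.80% in iPSCs. The levels of miR-20b-5p were 13.88 and 13.74 in NT-ESCs and 12.97 and 12.77 in iPSCs (difference 0.94, standard error 0.17, adjusted p = 0.00272), without overlap. Reads of miR-20a-3p numbered 55 and 43 against 13 and 22 (difference 1.56, standard error 0.32, adjusted p = 0.00462). Both cluster counts depended on the libraries. The 5 calls of the miR-106a cluster became 2 without either iPSC library, 1 without NT-ESC replicate 71 and 3 without NT-ESC replicate 72, and the 3 calls of the miR-17 cluster became 5 without iPSC replicate 62, 1 without iPSC replicate 63 or NT-ESC replicate 71, and 2 without NT-ESC replicate 72. With the total of miRNA reads as library size each cluster had 1.

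**Figure D4:**
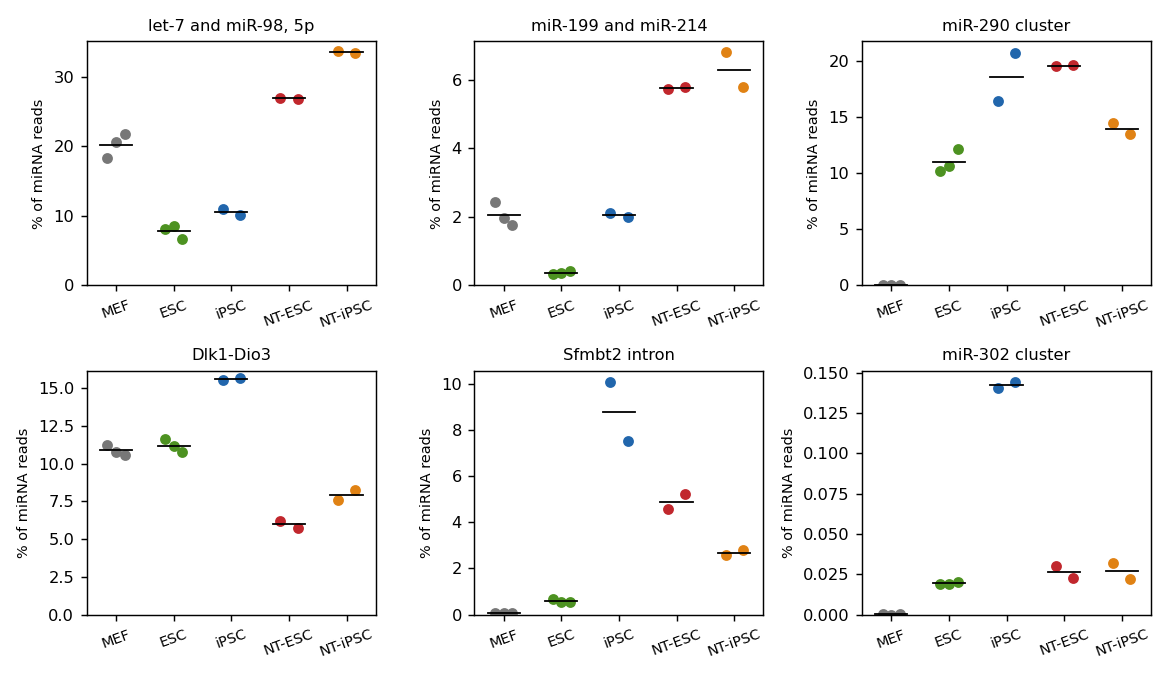
Percent of each library's miRNA reads (y axes, each from 0) that fell on 6 groups of miRNAs in the 12 libraries, with a point for each library and a bar for the mean of each cell type. let-7 and the miR-199 group were higher in NT-ESCs than in iPSCs, the Dlk1-Dio3, Sfmbt2 and miR-302 groups were lower, and the iPSC libraries lie on both sides of NT-ESCs for the miR-290 cluster.

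The imprinted Dlk1-Dio3 domain contributed the largest number of lower calls. Of 98 tested miRNAs 54 were called lower in NT-ESCs and none higher, 96 had a difference below 0, and the median was -0.95 beside -0.10 over all miRNAs tested. The 2 above 0 were not called. The domain's miRNAs held 6.23% and 5.77% of reads in NT-ESCs and 15.5% and 15.7% in iPSCs. In MEFs the share was 10.6% to 11.3% and in ESCs 10.8% to 11.6%, so that the NT-ESC libraries lay below and the iPSC libraries above both, and NT-iPSCs held 7.58% and 8.24%. In the 2 types compared reads from the domain were present in all 4 libraries.

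The levels of miR-300-3p were 10.33 and 10.09 in NT-ESCs and 11.44 and 11.60 in iPSCs, without overlap, and its difference was -1.31 (standard error 0.16, adjusted p = 0.000345). For miR-134-5p, which acts on dendrite growth in neurons and on Nanog in ESCs, the levels were 15.57 and 15.58 against 17.10 and 17.22. Both NT-ESC libraries were lower, by a difference of -1.58 (standard error 0.19, adjusted p = 0.00035) or 3.0-fold in normalized reads. The levels of miR-409-3p were 14.36 and 14.31 against 15.57 and 15.61 (difference -1.25, standard error 0.16, adjusted p = 0.000371). Both arms of the miR-434 hairpin, which lies antisense to the retrotransposon-derived gene Rtl1 together with miR-127, were lower to a like extent. The levels of miR-434-3p were 16.28 and 16.38 against 17.60 and 17.51 (difference -1.22, standard error 0.18, adjusted p = 0.000849). The levels of miR-434-5p were 10.52 and 10.53 against 11.70 and 11.61 (difference -1.13, standard error 0.17, adjusted p = 0.00091). The largest called differences were those of miR-412-3p (-1.83, standard error 0.39, adjusted p = 0.00612), which was not called without NT-ESC replicate 72 (-1.40, adjusted p = 0.0643), and of miR-679-5p (-1.82, standard error 0.38, adjusted p = 0.00555), which rests on 11 and 9 reads in NT-ESCs and 52 and 30 in iPSCs.

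Lower calls were found along the whole locus. Of its 52 hairpins on chromosome 12, 51 lie on the plus strand (GRCm38, chr12:109563692-109747960), and 94 of the tested arms could be placed there. Before the long noncoding RNA Rian, in the stretch that holds Meg3 and the transcript antisense to Rtl1, 15 of 25 were called lower (median -1.09). Within Rian it was 3 of 5 (median -0.66), between Rian and Mirg 18 of 41 (median -0.85), and within Mirg 15 of 23 (median -0.96). Of the 5p arms 25 of 49 and of the 3p arms 29 of 49 were called lower. The number of calls depended on the libraries and the scaling. Of the 54, 24 were called also without each of the 4 libraries. There were 35 without NT-ESC replicate 71, 26 without NT-ESC replicate 72, 33 with a difference of at least 1 required, and 79 with the total of miRNA reads as library size.

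**Figure D5:**
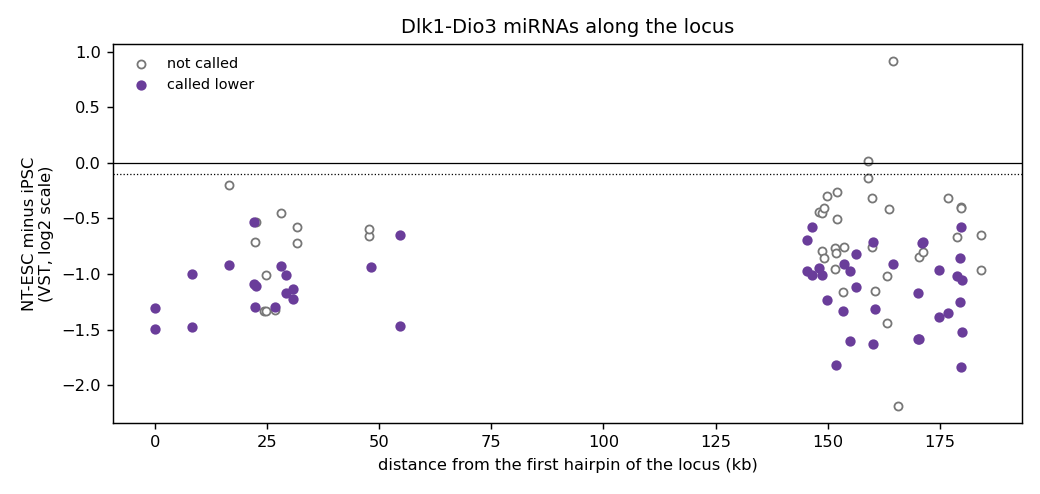
Difference of 94 tested Dlk1-Dio3 miRNAs (y axis, NT-ESC minus iPSC, VST on a log2 scale) against the distance of their hairpin from the first hairpin of the locus (x axis, kb), with filled points for those called lower and the dotted line for the median over all miRNAs tested, -0.10. Points below 0 fill both stretches of hairpins.

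Imprinted miRNAs from other loci went in both directions. Of 10 tested, 1 was called higher and 3 lower, beside 12.6% and 13.1% over all tested, with a median of -0.83. Reads of miR-483-5p, which lies in the growth factor gene Igf2, numbered 258 and 185 in NT-ESCs and 58 and 47 in iPSCs (difference 2.13, standard error 0.42, adjusted p = 0.00415). The miRNA of the neighbouring noncoding RNA H19, miR-675-5p, had 6 and 10 reads against 41 and 46 (difference -2.27, standard error 0.73, adjusted p = 0.042). Its call was lost whichever library was left out, with differences from -2.75 to -1.79. The levels of miR-296-3p from the Gnas domain were 10.89 and 11.13 against 12.80 and 13.11 (difference -1.94, standard error 0.42, adjusted p = 0.0066), and those of its neighbour miR-298-5p were 14.58 and 14.79 against 15.49 and 15.77 (difference -0.95, standard error 0.24, adjusted p = 0.0149). None of these 4 overlapped between the types. The 3 lower calls became 2 without iPSC replicate 62, 1 without iPSC replicate 63, 0 without NT-ESC replicate 71 and 2 without NT-ESC replicate 72. Among the Sfmbt2 intron miRNAs, a rodent cluster of many near-identical copies on chromosome 2, 4 of 73 were called lower and none higher (median -0.21). That is a smaller part than the 13.1% called lower over all miRNAs tested. The 4 are the pairs miR-466d-5p with miR-466n-5p (-0.88, adjusted p = 0.0206) and miR-467a-5p with miR-467b-5p (-0.72, adjusted p = 0.0165), each pair with nearly the same reads under both names, and of the 4 calls none was made without NT-ESC replicate 71 or iPSC replicate 63 and 2 were made without NT-ESC replicate 72 or iPSC replicate 62. Without iPSC replicate 63, 2 other members of the cluster were called lower. With the total of miRNA reads as library size there were 10 calls. The most abundant of the cluster, miR-669c-5p, had levels of 19.52 and 19.79 in NT-ESCs and 20.31 and 20.03 in iPSCs (difference -0.51, standard error 0.20, adjusted p = 0.0883). The cluster as a whole held 4.57% and 5.25% of reads in NT-ESCs and 10.1% and 7.54% in iPSCs.

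Of the X-linked miRNAs of the miR-465, miR-743 and miR-880 group, known from testis and germ cells, 7 of 25 tested were called lower in NT-ESCs and none higher. Over all miRNAs tested 13.1% were called lower. All 25 had differences below 0, from -2.03 to -0.25 with a median of -1.17. Reads of miR-878-3p numbered 4 and 3 in NT-ESCs and 21 and 15 in iPSCs (difference -2.03, standard error 0.41, adjusted p = 0.00448). The identical sequences of miR-465a-3p, miR-465b-3p and miR-465c-3p account for 3 of the 7 calls with nearly the same reads. All were rare, with 0.0186% and 0.0224% of reads in NT-ESCs and 0.0783% and 0.0495% in iPSCs. The number of calls was 1 without iPSC replicate 62, 2 without iPSC replicate 63, 2 without NT-ESC replicate 71 and 3 without NT-ESC replicate 72, and only 1 was made in every case.

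Single miRNAs outside these groups stood as far apart. The smallest p of all belonged to miR-184-3p, a miRNA of epithelia and neural stem cells, with levels of 10.35 and 10.55 in NT-ESCs and 12.16 and 12.20 in iPSCs. Its NT-ESC libraries were both lower, by a difference of -1.73 (standard error 0.14, adjusted p = 6.19e-05) or 3.32-fold in normalized reads. The mean level was 12.69 in MEFs, 14.64 in ESCs and 12.83 in NT-iPSCs, all above both NT-ESC libraries. Reads of miR-344-3p, whose hairpin lies on chromosome 7 (GRCm38, chr7:61877770-61877864), numbered 148 and 98 in NT-ESCs and 616 and 827 in iPSCs, with a difference of -2.47 (standard error 0.34, adjusted p = 0.000517). The levels of miR-449a-5p, which has the same seed as miR-34a and acts in multiciliated cells, were 9.25 and 9.39 against 11.11 and 11.61 (difference -2.04, standard error 0.31, adjusted p = 0.00105). Its neighbour in the gene Cdc20b, miR-449c-5p, was at 196 and 154 reads against 594 and 1181 (difference -2.18, adjusted p = 0.0141), a call lost without iPSC replicate 63 (adjusted p = 0.103), NT-ESC replicate 71 (0.0727) or NT-ESC replicate 72 (0.0698). None of the other 6 tested members of the miR-34 and miR-449 family was called.

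Of 10 neural miRNAs tested 3 were called higher (median 0.88), beside 12.6% over all tested. The call of miR-124-5p was lost without any 1 of the 4 libraries (adjusted p from 0.0969 to 0.164), and those of both arms of miR-9 were made in each case. The levels of miR-9-3p were 10.01 and 10.01 in NT-ESCs and 8.56 and 8.29 in iPSCs (difference 1.58, standard error 0.18, adjusted p = 0.000266), and those of the other arm, miR-9-5p, were 12.29 and 12.19 against 10.99 and 10.81 (difference 1.34, standard error 0.17, adjusted p = 0.000406). Neither arm overlapped between the types. Of blood and endothelial miRNAs 2 were called higher and 2 lower among 11, beside 12.6% and 13.1% over all tested. The inflammation-linked miR-146a-5p had levels of 12.68 and 12.83 in NT-ESCs and 11.37 and 11.24 in iPSCs (difference 1.45, standard error 0.18, adjusted p = 0.00035). The haematopoietic miR-142-3p was at 117 and 75 reads against 319 and 238 (difference -1.46, standard error 0.25, adjusted p = 0.00198), and its other arm miR-142-5p at 1297 and 1206 against 2453 and 3036 (difference -1.04, standard error 0.21, adjusted p = 0.00415). Of the 2 higher calls, 1 was lost without any 1 of the 4 libraries, and another member was called higher without iPSC replicate 63.

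The miR-29 family, which targets collagens and DNA methyltransferases, was called higher in 4 of 6 tested (median 1.01). The levels of miR-29a-3p were 19.32 and 19.16 in NT-ESCs and 17.84 and 18.29 in iPSCs, without overlap (difference 1.18, standard error 0.18, adjusted p = 0.00111). Its CPM in NT-ESCs, 28922 and 24854, was far above the MEF mean of 1166. With the total of miRNA reads as library size 2 of the 6 were called. Of miR-221 and miR-222, which repress cell cycle inhibitors, the 5p arms were called higher. The levels of miR-221-5p were 11.79 and 11.76 in NT-ESCs and 9.80 and 10.02 in iPSCs (difference 1.87, standard error 0.26, adjusted p = 0.000608). The oncogenic miR-21-5p, by far the most abundant miRNA of these MEFs, was lower at 18.73 and 18.92 against 19.56 and 19.41 (difference -0.66, standard error 0.18, adjusted p = 0.0216), and this call was lost without any 1 of the 4 libraries (adjusted p from 0.052 to 0.141). The liver miRNA miR-122-5p was higher, at 13.33 and 13.33 against 12.03 and 12.08 (difference 1.27, standard error 0.26, adjusted p = 0.0049).

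In other families few or no members were called. None was called among 9 of the miR-200 family, which guards the epithelial state, among 13 of the miR-15 and miR-16 family, among 6 of miR-148 and miR-152, among 6 of the miR-106b to miR-25 cluster or among both arms of miR-210, induced by hypoxia. At an unadjusted p under 0.05 there was 1 in the miR-15 family, 1 in the miR-106b cluster and 0 in the others, and voom on the recovered reads also called 0 in each. With the total of miRNA reads as library size 1 was called lower in the miR-15 family and 1 in the miR-106b cluster. With 1 library left out, the miR-15 family had 1 higher call without either iPSC library and 1 lower without NT-ESC replicate 72, the miR-106b cluster 1 higher without iPSC replicate 63, and miR-148 and miR-152 1 higher without NT-ESC replicate 71. Misses of the threshold do not show equal levels. The abundant miR-140-3p had levels of 19.75 and 19.87 in NT-ESCs and 19.57 and 19.95 in iPSCs, with the NT-ESC libraries between the iPSC libraries (difference 0.05, standard error 0.18, adjusted p = 0.855). Of the miR-23, miR-27 and miR-24 clusters 3 of 11 were called higher, none of them without iPSC replicate 62, NT-ESC replicate 71 or NT-ESC replicate 72. Of the miR-183, miR-96 and miR-182 cluster 2 of 6 were higher, and the levels of miR-182-5p were 16.25 and 16.23 in NT-ESCs and 15.39 and 15.55 in iPSCs (difference 0.76, standard error 0.14, adjusted p = 0.00338). The 2 calls became 3 without iPSC replicate 62 and 1 without each of the other 3 libraries. In the miR-181 family 2 of 9 were called higher (1 without iPSC replicate 62, NT-ESC replicate 71 or NT-ESC replicate 72), in the miR-130 and miR-301 family 2 of 8 (1 without iPSC replicate 62 or NT-ESC replicate 72, and 1 called lower without iPSC replicate 63 and another with voom), and in the miR-30 family 1 of 11 was called lower (0 without iPSC replicate 63, NT-ESC replicate 71 or NT-ESC replicate 72, and 1 called higher without iPSC replicate 63 or with voom). With the total of miRNA reads as library size, 3 of the miR-30 family were called lower. In that setting 1 was called higher in each of the miR-183, miR-181 and miR-130 groups, and 0 in the miR-23 clusters. Of 296 tested miRNAs on no list, 27 were called higher and 14 lower, with a median of 0.03.

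The groups shown in the plot of differences by group, apart from miR-99, miR-100 and miR-125 and from the imprinted miRNAs of other loci, had calls in 1 direction only. In those groups no tested member reached an unadjusted p under 0.05 in the other direction, and voom called 0 there. With 1 library left out, the Hox clusters had 1 lower call without iPSC replicate 63.

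The calls of neighbouring hairpins were mostly in 1 direction. Grouping hairpins less than 10 kb apart gave 36 clusters with at least 4 tested arms, of which 27 held at least 1 called miRNA. In 20 clusters there were at least 2 calls, and in 18 of these all calls had 1 direction. Arms of neighbouring hairpins share a transcript and some share reads, so they are not independent.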

How the data were processed

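Small RNA was sequenced from 12 libraries of 5 cell types, each 1 line. The authors removed adaptors and low quality tags, normalized the miRNA reads and deposited variance stabilized values (DESeq) on a log2 scale; the submitters' notes also name mm8. Inverting the transformation gave whole reads within 0.05 read for 100% of nonzero values, and these were used for depth, shares, CPM and other scalings. NT-ESCs and iPSCs were compared in a limma fit (version 3.58.1, under R 4.3.3) of the transformed values, which held 5 group means over 12 libraries and a trended empirical Bayes variance. Benjamini-Hochberg adjustment ran over 732 miRNAs, those for which 2 or more libraries had 10 reads. The procedure was tested on simulated data. Python 3.11.15 made the summaries.

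Positions of hairpins were taken from GENCODE M21 (GRCm38) for 962 of 1042 names. The members and lists were chosen with earlier results of these data known. Named are 10 miRNAs per direction (smallest p among calls without overlap), up to 4 per list (the largest called differences), the 5 most abundant, and cell type markers; any other is marked as such. Alternatives were upper quartile, TMM-type and total-read scaling, other filters, other libraries in the fit, voom, a pseudocount of 1, no trend, a minimum difference of 1, identical or abundant miRNAs removed, and each library left out. Counting identical RefSeq sequences once was chosen after seeing the data.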

Additional observations from a re-analysis of the deposited data

How the results depend on the processing

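The number of called miRNAs, 188, ran from 103 to 259 over 17 alternatives and stayed within 1.5 times of it except where an NT-ESC library was left out, which gave 111 without replicate 71 and 103 without replicate 72. Over the 4 libraries left out in turn, calls ran from 103 to 146, higher calls ran from 50 to 76 and lower calls from 53 to 74; there a type with 1 remaining library is assumed to vary like the other groups. With the total of miRNA reads as library size the 92 higher and 96 lower calls became 58 and 173, and a minimum difference of 1 left 62 lower. Of the named miRNAs, 4 values turned sign, all of miRNAs not called: miR-200a-3p, at -0.06, became 0.016 with upper quartile scaling and ran from -0.21 to 0.10 with 1 library left out (0.10 without iPSC replicate 63), miR-16-5p, at 0.28, became -0.080 with the total of miRNA reads, and miR-152-3p, at -0.10, ran from -0.31 to 0.10 with 1 library left out (0.10 without NT-ESC replicate 71). The cause was not tested. Of 1582 values of 94 named miRNAs under the alternatives, 1372 kept their direction and their side of the threshold and 206 kept the direction alone. No paired analysis was possible because the NT-ESC libraries carry other replicate numbers than the iPSC libraries. Each type is 1 line with 2 libraries, and miRNAs under about 10 reads differ by few counts.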
